A study of Drosophila melanogaster with 4 samples.

Results

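Reactive oxygen species made by mitochondria are removed in a chain of enzymes. Superoxide dismutases turn superoxide into hydrogen peroxide, catalase and peroxidases break hydrogen peroxide down, and the thioredoxin system returns oxidized protein cysteines to their reduced form. In flies, the transcription factor Cnc, in its long CncC form the counterpart of mammalian Nrf2, activates detoxification genes and is held back by Keap1. Flight muscle, with its dense mitochondria, is a tissue in which these defences are studied often. The 8 genes described here are Sod1, Sod2 and Sod3, the catalase gene Cat, thioredoxin Trx-2, thioredoxin reductase Trxr-1, and the regulators cnc and Keap1. They were chosen by symbol, and all 8 were found among the 13012 genes of the table.

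The study asked which genes depend on the transcription factor MEF2 in adult flight muscle of Drosophila melanogaster. Every fly carried Act88FGS, a GeneSwitch driver under the flight-muscle actin promoter Act88F that becomes active when RU486 is fed. Flies of the RNAi genotype (ACT88FGS>MEF2RNAi) also carried a UAS RNAi transgene against Mef2, and control flies (ACT88FGS>W1118) did not. Each genotype was fed RU486 (+RU486) or its solvent, ethanol (-RU486). All were mated females, labelled as 10 days old and kept on the high calorie diet. Total RNA of 8 pooled thoraces gave 1 library per condition, 4 libraries in all, so the differences below rest on single libraries, and p-values were not computed. A dissected thorax holds nerve, fat body, gut and blood cells beside flight muscle, and the driver acts only in the muscle. Fewer cells of a type and less RNA per cell cannot be told apart in such samples.

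The table holds log2 values centred gene by gene. A value is the log2 difference of 1 library from that gene's mean over the 4 libraries. It carries no expression level, so the genes cannot be ranked by abundance and the labelled tissue cannot be checked from its defining markers. The depth of the libraries is unknown. The table also has library-wide shifts, and these bear on every value below. Over all genes, the median log2 fold change with RU486 was -0.38 in the RNAi genotype and 0.36 in controls. Fold changes are therefore given on 3 scales, the deposited one, a scale on which the median of all genes is 0 in each library, and a scale on which the median of 85 cytosolic ribosomal protein genes is 0. The all-gene scale shifts log2 fold changes by 0.36 in the RNAi genotype and by -0.35 in controls, the ribosomal scale by 0.47 and -0.49. The targeted gene, Mef2, stood at -0.38 with and 0.25 without RU486 in the RNAi genotype, and at 0.22 and -0.098 in controls. Its log2 fold changes in the RNAi genotype and in controls were -0.63 and 0.32 as deposited, -0.26 and -0.026 on the all-gene scale, and -0.16 and -0.17 on the ribosomal scale, where the genotypes differed by 0.0082.

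On the deposited scale, RU486 feeding went with lower values of all 8 antioxidant genes in the RNAi genotype and with higher values in controls. Of all genes, 83.7% had this pair of directions. Relative to all genes 7 of 8 members had it, all but Sod3, against 35.3% of all genes. On the ribosomal scale 1 of 8 had it, Sod1, against 5.7% of all genes. Of the 85 ribosomal protein genes, 83 had it as deposited, 80 relative to all genes and 18 on the ribosomal scale. The members' log2 fold changes ran from -0.65 for Trxr-1 to -0.36 for Sod3 in the RNAi genotype, with a median of -0.49. In controls they ran from 0.36 for Sod2 to 0.59 for Trx-2, with a median of 0.48. Ribosomal protein genes had medians of -0.47 and 0.49, close to those of the antioxidant genes. With the study's limits, a fold change at or below 0.65 that controls did not share, only Trxr-1 was called lower in the RNAi genotype, 1 of 8 members beside 6.96% of all genes. No member reached 1.5 in the RNAi genotype alone, beside 0.576% of all genes. In controls 1 of 8 members, Trx-2, reached a fold change of 1.5, as did 6.54% of all genes. The lowest of the 4 libraries was the RNAi genotype with RU486 for Sod2, Cat and Trxr-1 (3 of 8, and 48.2% of all genes) and uninduced controls for the other 5 (47.4% of all genes). The highest was the uninduced RNAi genotype for 5 members (49.3% of all genes) and controls with RU486 for Sod3, Trx-2 and cnc (44.6%). The members were thus divided between the libraries much as all genes were.

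**Figure D1:**
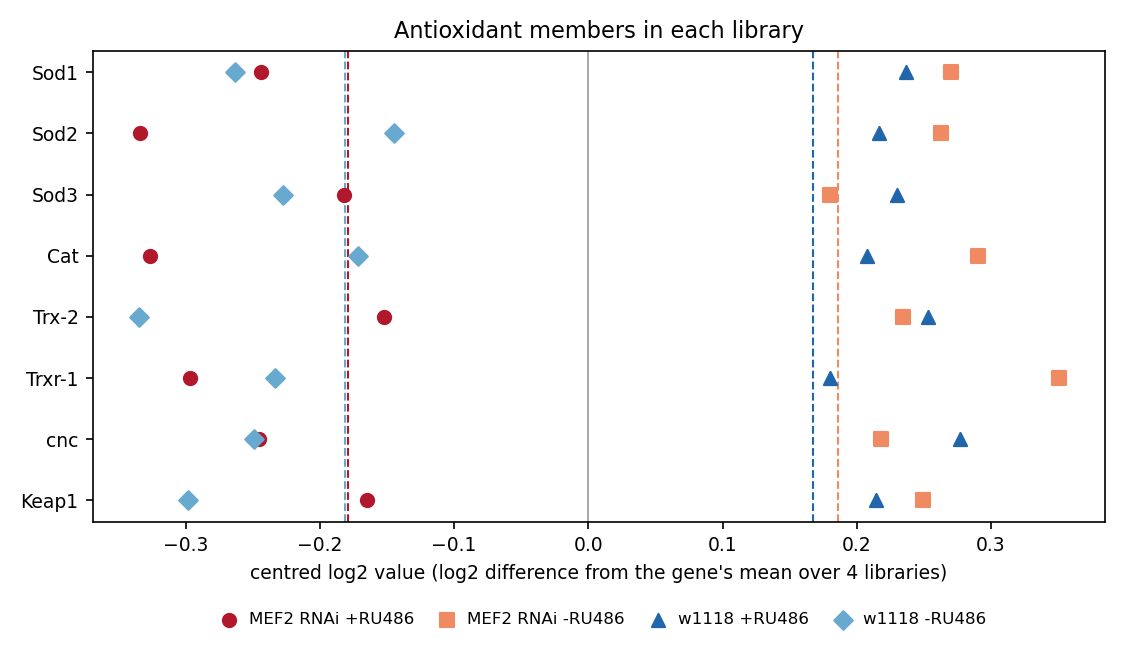
Deposited centred log2 values (horizontal axis) of the 8 antioxidant genes (vertical axis), 1 point per library, with dashed lines at each library's median over all genes. For every gene the MEF2 RNAi +RU486 and w1118 -RU486 points lie below 0 and the other 2 libraries above 0, with Trxr-1 highest at 0.35 in MEF2 RNAi -RU486 flies.

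Sod1 encodes the cytosolic copper-zinc superoxide dismutase and lies on chromosome 3L, 11112281 to 11113740, in the BDGP6 annotation (the build behind the table is not given in the sources used here). Its values were -0.24 with RU486 and 0.27 without in the RNAi genotype, and 0.24 with RU486 and -0.26 without in controls. The pattern was close to symmetric, with fold changes of 0.70 and 1.41. On the all-gene scale the log2 fold changes were -0.15 and 0.15, and on the ribosomal scale -0.045 and 0.0092. Sod1 was the only member that kept both directions on each scale computed, including one set by the 11049 genes that shared their values with no other gene.

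Sod2, the manganese superoxide dismutase of the mitochondrial matrix (chromosome 2R, 16772785 to 16773915), had a different shape. Its values were -0.33 and 0.26 with and without RU486 in the RNAi genotype, and 0.22 and -0.14 in controls. The first of these was the lowest value of the members in that library, and the step in controls was the smallest of the 8. The fold changes were 0.661 and 1.28. The log2 fold changes of Sod2 were -0.23 and 0.012 on the all-gene scale. On the ribosomal scale they were -0.13 in both genotypes, a difference between them of 0.0019.

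Sod3 encodes a secreted copper-zinc superoxide dismutase (chromosome 2R, 11380347 to 11384114, 5 annotated transcripts). Its values were -0.18 and 0.18 in the RNAi genotype with and without RU486, and 0.23 and -0.23 in controls. It had the narrowest range of the members, 0.46 on the log2 scale. With a fold change of 0.778 it was also the member closest to 1 in the RNAi genotype, and 52.4% of all genes had a lower one. On the all-gene scale the log2 fold changes were 0.0030 and 0.11, and on the ribosomal scale 0.11 and -0.033.

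Cat encodes catalase, the peroxisomal enzyme that splits hydrogen peroxide into water and oxygen (chromosome 3L, 18822604 to 18828188). Its values were -0.33 and 0.29 in the RNAi genotype with and without RU486, and 0.21 and -0.17 in controls. These 4 values followed those of Sod2 more closely than any other pair among the 28 pairs of members, at a Euclidean distance of 0.040 over the 4 libraries. The fold change in the RNAi genotype was 0.652, just above the limit, and 7.32% of all genes had a lower one. In controls it was 1.30. The log2 fold changes relative to all genes were -0.25 and 0.030, and relative to ribosomal protein genes -0.15 and -0.11.

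Within the thioredoxin system the reductase had a somewhat wider range over the libraries than the thioredoxin, 0.65 against 0.59, but a smaller step in controls. Trx-2 encodes the small, widely expressed thioredoxin that reduces protein disulfides (chromosome 2L, 9613166 to 9616404, annotated as Trx2). Its values were -0.15 and 0.23 in the RNAi genotype with and without RU486, and 0.25 and -0.33 in controls. Uninduced controls were thus the low library for this gene. Its fold changes were 0.765 and 1.502, the latter the highest among the members in controls. Relative to all genes Trx-2 had log2 fold changes of -0.022 and 0.24, and relative to ribosomal protein genes 0.083 and 0.097.

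Trxr-1 encodes thioredoxin reductase, the NADPH-dependent enzyme that recharges thioredoxin and that in flies also serves glutathione, since they lack a glutathione reductase (chromosome X, 8242528 to 8248033, annotated as Trxr1). Its values were -0.30 and 0.35 in the RNAi genotype with and without RU486, and 0.18 and -0.23 in controls. The range of 0.65 was the widest of the 8, and the fold change of 0.638 in the RNAi genotype the lowest, with 5.44% of all genes lower still. In controls the fold change was 1.33. Relative to all genes the log2 fold changes were -0.28 and 0.065, a fold change of 0.822 in the RNAi genotype, so the call at 0.65 was lost. Relative to ribosomal protein genes they were -0.18 and -0.077. Trxr-1 overlaps 1 other annotated gene, sni, on the opposite strand, and how reads on overlapping genes were assigned is not stated.

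The regulator cnc and its inhibitor Keap1 had fold changes closer to 1 in the RNAi genotype than Sod1, Sod2, Cat and Trxr-1. For cnc (chromosome 3R, 23185580 to 23226711), the values were -0.25 and 0.22 in the RNAi genotype with and without RU486, and 0.28 and -0.25 in controls. The annotation lists 16 transcripts of cnc, and the single value per gene does not separate CncC from the shorter forms. The locus also overlaps 3 other genes, Irk1, CG46310 and fzo. For Keap1 (chromosome 3R, 17073942 to 17079945), the adaptor that targets CncC for degradation, the values were -0.17 and 0.25, and 0.21 and -0.30. Fold changes were 0.726 for cnc and 0.750 for Keap1 in the RNAi genotype, and 1.44 and 1.43 in controls. Relative to all genes, cnc had log2 fold changes of -0.098 and 0.18 and Keap1 of -0.049 and 0.16. Relative to ribosomal protein genes, all 4 of these values lay between 0.0065 and 0.055.

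**Figure D2:**
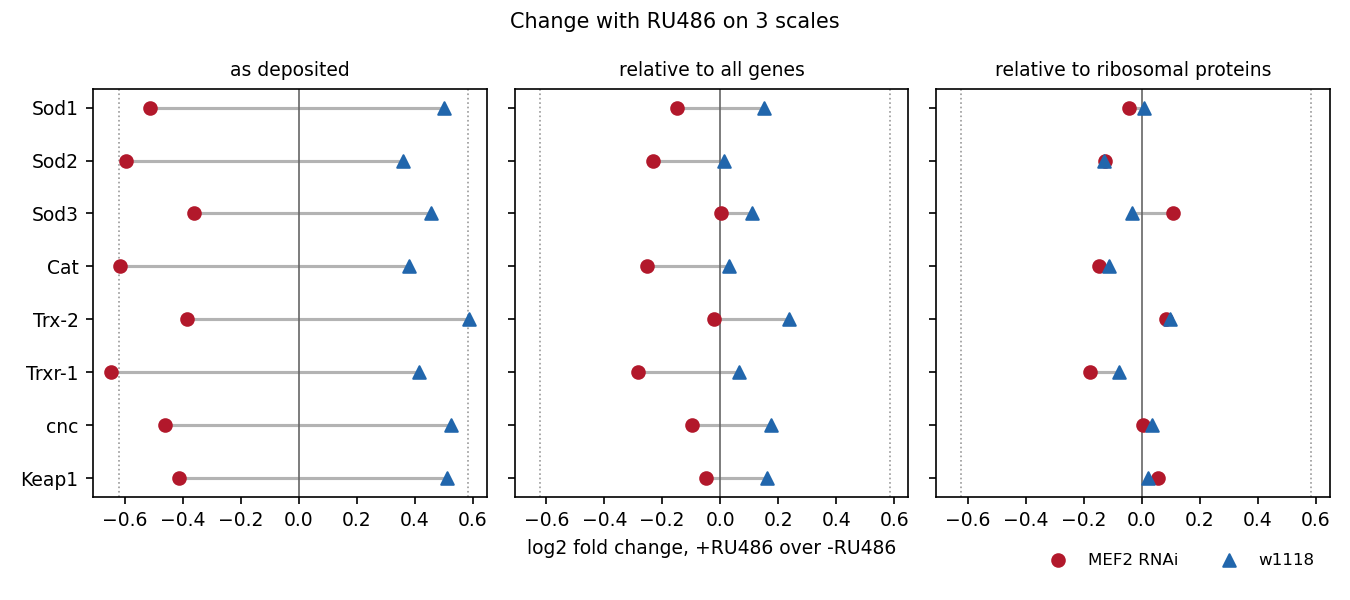
Log2 fold change of +RU486 over -RU486 (horizontal axis) in MEF2 RNAi (circles) and w1118 (triangles) flies for the 8 antioxidant genes, on 3 scales, with dotted lines at fold changes of 0.65 and 1.5. As deposited the genotypes are far apart, with a median difference of -0.98, while that difference is -0.27 on the all-gene scale and -0.022 on the ribosomal scale.

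The difference between the genotypes, the log2 fold change in the RNAi genotype minus that in controls, was negative for all 8 genes on the deposited scale, from -1.06 for Trxr-1 to -0.82 for Sod3, as it was for 95.2% of all genes. The median over the members was -0.98 and that over all genes -0.78. For Trxr-1, 5.19% of all genes had a lower difference, for Sod1 9.78%, for Cat 12.3%, for cnc 13.2%, for Trx-2 15.8%, for Sod2 18.4%, for Keap1 24.5% and for Sod3 44.5%. Each member thus lay on the lower side of the distribution of all genes, Sod3 near its middle. That distribution includes 16.1% of genes whose values stayed within 0.1 of their mean in every library, and these lie on its upper side. The 85 ribosomal protein genes were placed like the members, with a median of -0.96 and 84 of 85 negative as deposited. Relative to all genes 82 of these 85 were negative. On the all-gene scale the differences ran from -0.35 to -0.11 and were negative for all 8 members and 57% of all genes. On the ribosomal scale 5 of 8 members and 18.1% of all genes were negative, with the members in a range from -0.10 for Trxr-1 to 0.14 for Sod3. The direction of the difference for Sod2, Sod3 and Keap1 therefore turned with the reference.

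The genotypes were also set against each other at the same feeding. With RU486, all 8 genes had lower values in the RNAi genotype than in controls (as did 93.6% of all genes), with fold changes from 0.683 for Sod2 to 0.769 for Keap1. None reached 0.65, beside 3.87% of all genes. Without RU486 all 8 were higher in the RNAi genotype (as were 94.5% of all genes), from 1.33 for Sod2 to 1.499 for Trxr-1, and none reached 1.5, beside 6% of all genes. These comparisons use the same 4 libraries as those above. On the all-gene scale the fold changes were 0.868 to 0.978 with RU486 and 1.03 to 1.16 without. On the ribosomal scale 6 of 8 members were lower in the RNAi genotype with RU486 (39.6% of all genes), all but Trx-2 and Keap1. Without RU486, 6 of 8 were lower there too (89.8% of all genes), all but Trx-2 and Trxr-1, with a median log2 difference of -0.050, so that the direction for these 6 turned with the reference.

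A ratio of 2 genes within 1 library is free of any shift that all genes of the library share, and 8 such ratios were computed, a choice made after the values were seen. The largest change was that of Trxr-1 over Trx-2. Its log2 ratio, relative to the mean of the 4 libraries, was 0.12 without and -0.14 with RU486 in the RNAi genotype, a change of -0.26. In controls it was 0.10 without and -0.073 with RU486, a change of -0.17. The direction was thus shared by the genotypes, which differed by -0.087. The ratio of Sod2 to Sod1 changed by -0.083 with RU486 in the RNAi genotype and by -0.14 in controls, and that of Cat to Sod1 by -0.10 and -0.12. Sod2 and Cat were therefore lower against Sod1 with RU486 than without it in both genotypes. Sod3 over Sod1 was the ratio in which the genotypes differed most, by 0.19, with changes of 0.15 in the RNAi genotype and -0.042 in controls. The ratio of cnc to its inhibitor Keap1 changed by -0.049 and 0.014. Cat over Sod2 changed by -0.020 and 0.018, the smallest pair of changes of the 8.

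Genes with the most similar values were listed without regard to function, the 2 nearest for each member by Euclidean distance over the 4 libraries. They were cdm and RpS2 for Sod1, Atg4b and Sdc for Sod2, CdGAPr and Snx16 for Sod3, and magu and CG12099 for Cat. For the others they were RpS10b and fu (Trx-2), CG32698 and CG8417 (Trxr-1), tra2 and CG13920 (cnc), and CG32795 and Eb1 (Keap1). Distances ran from 0.0029 for CdGAPr to 0.016 for CG8417. No member had another member among its 2 nearest genes. Only 8 of the 13012 genes were members, so this does not show how alike the members were.

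The other genes of the pathway were taken from a list of 51 genes, of which 45 were matched in the table. On the deposited scale 42 of the 45 had a log2 fold change below 0 in the RNAi genotype (88.9% of all genes) and 42 one above 0 in controls (93.1%), with median log2 fold changes of -0.52 and 0.38. By the study's limits 8 of 45 were lower in the RNAi genotype alone (6.96% of all genes were), and 1, dhd, was higher (0.576% of all genes were). Relative to all genes 2 of 45, dhd and TrxT, were higher, as were 213 of all 13012 genes. The 8 called lower as deposited were Fer1HCH, Fer2LCH, Ho, CG14407, PHGPx, CG8993, dj-1beta and Zw. Relative to all genes, Fer1HCH remained past the limit and the other 7 did not, and 0.3% of all genes were past it. On the ribosomal scale and on the scale of genes with unshared values, 0 of the 45 were past it, and Fer1HCH had a log2 fold change of -0.56 in the RNAi genotype on the former.

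**Figure D3:**
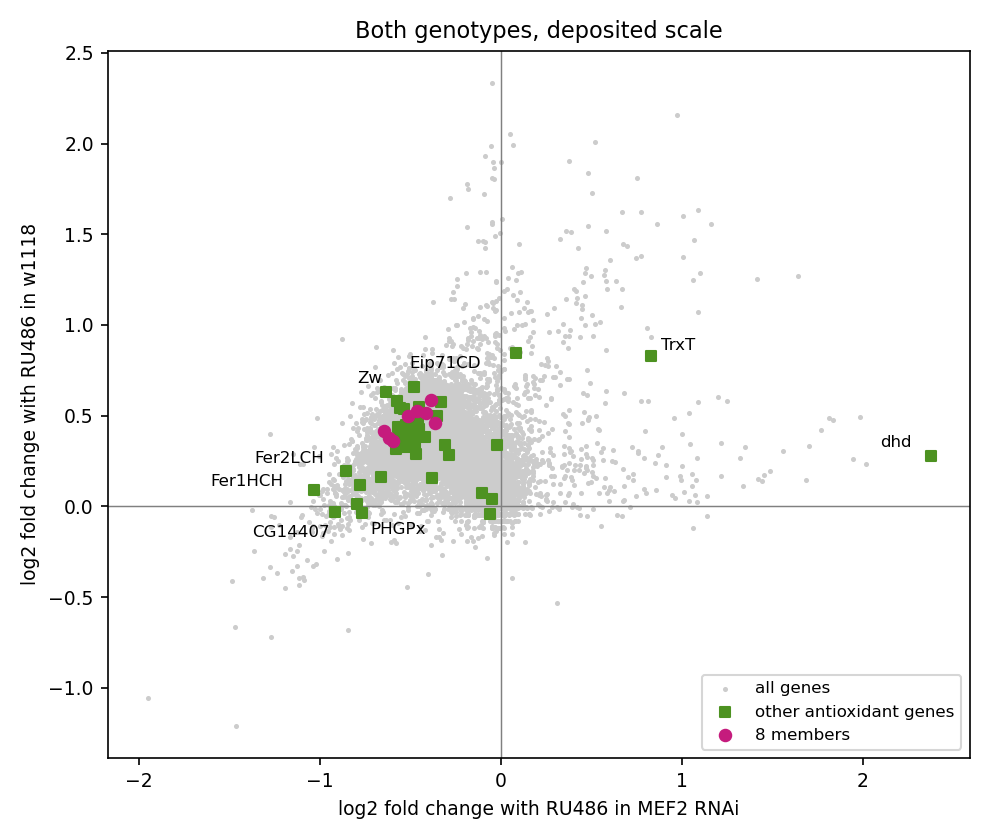
Log2 fold change with RU486 in the RNAi genotype (horizontal axis) against that in w1118 flies (vertical axis), deposited scale, for all genes (grey), 45 other antioxidant genes (squares) and the 8 members (circles). The members lie at the upper left within the cloud of all genes, below 0 for MEF2 RNAi and above 0 for w1118 flies, while dhd lies far to the right at 2.37 and Fer1HCH far to the left at -1.03.

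Iron-handling genes had the lowest median of the groups in the RNAi genotype, -0.76 over 4 genes, with 0.13 in controls. Fer1HCH and Fer2LCH encode the heavy and light chains of ferritin, which stores iron and keeps it from generating radicals. Fer1HCH had values of -0.44 and 0.59 in the RNAi genotype with and without RU486, and of -0.030 and -0.12 in controls. Flies of the RNAi genotype without RU486 were thus the high library, and the control libraries differed little. Its fold changes were 0.489 and 1.06, and its log2 fold changes relative to all genes -0.67 and -0.26. Fer2LCH had values of -0.36, 0.49, 0.035 and -0.16 in the same order, with fold changes of 0.553 and 1.14. The 2 genes overlap on opposite strands on chromosome 3R, so that reads in the shared stretch may not be independent. Ho, haem oxygenase, had fold changes of 0.631 and 1.12. Fer3HCH, the heavy chain of mitochondrial ferritin, stayed within 0.1 of its mean in every library and shared its 4 values with at least 1 other gene.

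A second set was low in the RNAi genotype with RU486, high without it, and nearly level in the control libraries. CG14407, annotated as Grx5, a glutaredoxin that in yeast and human mitochondria serves iron-sulfur cluster assembly, had values of -0.47 and 0.45 in the RNAi genotype and of -0.0052 and 0.025 in controls. CG8993, a thioredoxin by the list, had -0.39 and 0.40, and 0.0043 and -0.010. dj-1beta, the counterpart of human DJ-1, had -0.39 and 0.39, and 0.058 and -0.062. The fold changes in the RNAi genotype were 0.531, 0.578 and 0.583, against 0.979, 1.01 and 1.09 in controls. PHGPx, annotated as Gtpx, a peroxidase of the glutathione peroxidase family, had 0.587 and 0.973. On the all-gene scale these 4 genes were negative in both genotypes, with log2 fold changes of -0.55, -0.43, -0.41 and -0.40 in the RNAi genotype and of -0.38, -0.33, -0.23 and -0.39 in controls. CG8993 and PHGPx each overlap 1 other gene.

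Genes that supply NADPH had log2 fold changes of opposite sign in the genotypes on the deposited scale. Zw, glucose-6-phosphate dehydrogenase, the entry to the pentose phosphate pathway, had values of -0.35 and 0.29 in the RNAi genotype with and without RU486, and of 0.35 and -0.29 in controls. Its fold changes of 0.645 and 1.55 passed a limit in each genotype in opposite directions. The difference between the genotypes was -1.27, the most negative among the members and the other antioxidant genes. The log2 fold change of Zw was below 0 in the RNAi genotype and above 0 in controls on each scale, with log2 fold changes of -0.27 and 0.28 on the all-gene scale and of -0.16 and 0.14 on the ribosomal scale. Zw overlaps 2 annotated genes. Men, malic enzyme, had fold changes of 0.712 and 1.31. All 5 NADPH genes had log2 fold changes below 0 in the RNAi genotype and above 0 in controls as deposited. All 5 had them relative to all genes as well, and 2 of 5 on the ribosomal scale. On these scales 83.7%, 35.3% and 5.7% of all genes had this pair of directions. Of the 85 ribosomal protein genes, 83, 80 and 18 had it.

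GstD1 and Eip71CD had patterns like that of Zw. GstD1, a glutathione S-transferase whose regulatory region is widely used to report CncC activity, had values of -0.25 and 0.32 in the RNAi genotype and of 0.25 and -0.33 in controls. Eip71CD, annotated as MsrA, which repairs oxidized methionine in proteins, had -0.34 and 0.14, and 0.43 and -0.23. The differences between the genotypes were -1.15 for GstD1 and -1.14 for Eip71CD, and log2 fold changes relative to all genes were -0.21 and 0.23 for GstD1 and -0.12 and 0.31 for Eip71CD. The ratio of GstD1 to cnc within a library changed by -0.11 with RU486 in the RNAi genotype and by 0.053 in controls, and the ratio of Gclc, the catalytic subunit for glutathione synthesis, to cnc by -0.016 and -0.071. SelR, the other methionine sulfoxide reductase of the list, had fold changes of 0.675 and 1.36.

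Peroxiredoxins, which reduce peroxides with electrons from thioredoxin, were grouped with their repair enzyme sulfiredoxin (CG6762, annotated as Srx). All 8 genes of this group had the members' pair of directions as deposited, 5 of 8 relative to all genes and 0 of 8 on the ribosomal scale, beside 83.7%, 35.3% and 5.7% of all genes. The deposited medians were -0.49 and 0.37, and none passed a limit. Their difference between genotypes was lowest for Prx2540-2, at -1.0004, and highest for CG6762, at -0.64. Prx2540-1, Prx2540-2 and CG12896 are close copies, and their separate values are uncertain because shared reads may have been split among them. Of the partners of cnc and Keap1 and other stress regulators, all 8 had it as well (5 of 8 relative to all genes, and 1, foxo, on the ribosomal scale, beside the same shares of all genes), with deposited medians of -0.55 in the RNAi genotype and 0.40 in controls. foxo, a transcription factor of the insulin pathway, had the most negative difference of this group, -1.07, and DJ-1alpha the least, -0.18. Ccs, the copper chaperone of Sod1, had fold changes of 0.678 and 1.29. CG5948, listed as a relative of superoxide dismutase, had 0.819 and 1.22. Irc, the immune-regulated catalase, had 0.782 and 1.41, and CG9314, listed as a relative of catalase, 0.984 and 1.26. GSS, a glutathione synthetase annotated as Gss1, had 0.769 and 1.11, and its value is uncertain because of its close copy CG32495. The annotated loci of Ho, Fer3HCH, Txl and CG6762 overlap other genes.

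**Figure D4:**
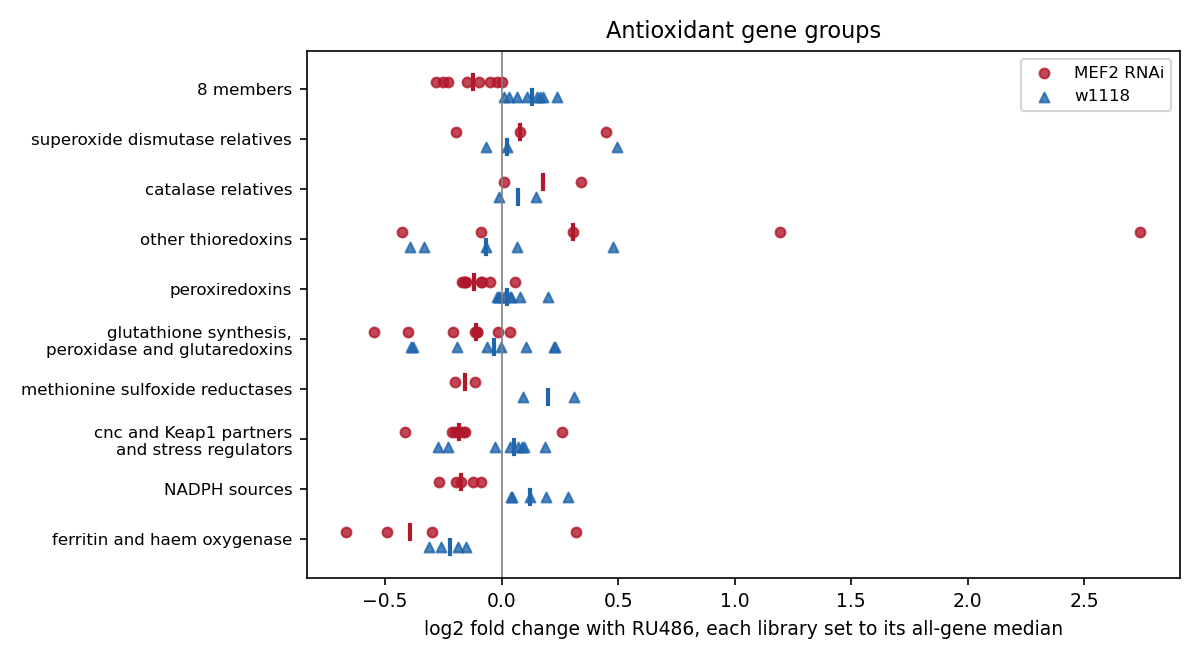
Log2 fold change with RU486 after each library was set to its all-gene median (horizontal axis), for the 8 members and 9 groups of other antioxidant genes (vertical axis), with circles for MEF2 RNAi, triangles for w1118 and bars at each group's median. Most groups lie near 0. The group of ferritin and haem oxygenase has the lowest median in the RNAi genotype, with Fer1HCH lowest at -0.67. Fer3HCH lies at 0.32, but its deposited log2 fold change was -0.048, so this position comes from the all-gene shift of 0.36. Among the other thioredoxins, dhd at 2.74 and TrxT at 1.19 stand out.

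The germline thioredoxins dhd and TrxT were higher with RU486 in both genotypes as deposited, dhd far more so in the RNAi genotype and TrxT about equally. dhd, deadhead, the thioredoxin of the female germline that acts on sperm chromatin at fertilization, stood at 1.70 with RU486 and at -0.68 without it in the RNAi genotype, against -0.37 and -0.65 in controls. It was high in 1 library and low in the other 3. Its fold changes were 5.19 and 1.21, and its log2 fold change in the RNAi genotype was 2.74 relative to all genes. A list of 10 germline and egg markers was high in the same library, 10 of 10 being highest in the RNAi genotype with RU486, where their median value was 1.05, against -0.39, -0.16 and -0.41 in MEF2 RNAi -RU486, w1118 +RU486 and w1118 -RU486 flies. Of all genes, 3.97% were highest in that library. The part of germline RNA in the value of dhd was not tested. TrxT, the thioredoxin of the male germline and the neighbour of dhd on chromosome X, had 0.44 and -0.39 in the RNAi genotype and 0.38 and -0.44 in controls. Its fold change with RU486 was 1.78 in each genotype as deposited, but 2.29 in the RNAi genotype and 1.39 in controls on the all-gene scale. TrxT was called higher in the RNAi genotype alone on that scale, as were 213 of all 13012 genes. Its log2 fold changes on the ribosomal scale were 1.30 and 0.34. The somatic Trx-2 shared neither pattern. Txl, a thioredoxin-like protein, had fold changes of 0.730 and 1.33.

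Markers of thoracic tissue and cell types had shifts like those of the antioxidant genes on the deposited scale. Fat body markers (8 genes) had median log2 fold changes of -0.55 in the RNAi genotype and 0.49 in controls, hemocyte markers (7 genes) of -0.42 and 0.47, neuronal markers (7 genes) of -0.53 and 0.30, and muscle markers (10 genes) of -0.49 and 0.51. Gut markers (9 genes) differed from these, with -0.13 and 0.74. Of the 9, 8 were highest in controls with RU486 (44.6% of all genes) and 1 in the RNAi genotype without it. The members' medians of -0.49 and 0.48 lay within the range of the fat body, hemocyte, neuronal and muscle lists, whose part in the members' values was not tested.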

How the data were processed

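RNA-seq libraries were made from total RNA of 8 thoraces each with a stranded total RNA kit, per the labels. The deposited table gives log2 values made by the authors for 13012 genes, in columns named by the 4 sample titles. The values of a gene sum to 0 within 7e-15, so they were centred per gene. The aligner, counter, build, normalization and depth are not given in the sources used here, and counting intervals were therefore not computed.

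Log2 fold changes were differences between values, and the fold limits of 0.65 and 1.5 follow the study. The members and gene lists were chosen with earlier results of these data known. Named are the 8 members, Mef2, other antioxidant genes past a limit in the RNAi genotype alone (as deposited or relative to all genes) or with the highest or lowest genotype difference of their group, and the 2 nearest genes of each member. CG12896, Prx2540-1, CG32495 and Gclc were named outside this rule, after their values were seen. Symbols were matched by name or synonym, and coordinates are from Ensembl release 115 (BDGP6), which held 32 of the 34 members, Mef2 and other antioxidant genes named. Alternatives were 3 other scales, 2 other pairs of limits, and lists without the genes that share all 4 values with another gene (1963 in the table). Ratios within a library were added after the data were seen. Python 3.11.15, numpy 2.4.6, pandas 2.3.3 and matplotlib 3.10.9 were used, and the calculations were tested on simulated data.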

Additional observations from a re-analysis of the deposited data

Results flagged for a closer look

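The log2 fold change with RU486 went in opposite directions in the 2 genotypes for 30 of the 34 genes named from the antioxidant lists and Mef2. It was below 0 in the RNAi genotype and above 0 in controls, as for 83.7% of all genes on the deposited scale. With 1 library per condition, the difference was not tested. For the members it was -1.01 for Sod1, -0.96 for Sod2, -0.82 for Sod3, -0.996 for Cat, -0.97 for Trx-2, -1.06 for Trxr-1, -0.99 for cnc and -0.93 for Keap1, and for Mef2 it was -0.95. Among the other antioxidant genes it was -1.27 for Zw, -1.15 for GstD1, -1.14 for Eip71CD, -1.12 for Fer1HCH, -1.07 for foxo, -1.05 for Fer2LCH, -1.01 for SelR and -1.0004 for Prx2540-2. Smaller differences were -0.93 for Ccs, -0.90 for dj-1beta, -0.88 for Men, -0.87 for Txl, -0.85 for Irc, -0.83 for Ho, -0.81 for CG8993, -0.64 for CG6762, -0.57 for CG5948, -0.54 for GSS, -0.36 for CG9314, -0.18 for DJ-1alpha and -0.086 for Fer3HCH. Of the 30 genes, 5 had both directions on all 4 scales, namely Sod1, Zw, foxo, GstD1 and Eip71CD. All of these but Sod1 had been named for the lowest genotype difference of their group, so the count does not measure how common the pattern was. On the ribosomal scale alone 5.7% of all genes had it.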

How the results depend on the processing

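On the all-gene scale, in log2 fold changes, the 8 members had medians of -0.12 in the RNAi genotype and 0.13 in controls, their median genotype difference -0.27, and the medians of the other antioxidant genes -0.15 and 0.035. With the ribosomal reference these values were -0.019, -0.012, -0.022, -0.048 and -0.11. With genes of unshared values as the reference they were -0.078, 0.089, -0.18, -0.11 and -0.0054. The number of members called lower in the RNAi genotype alone, 1 as deposited, was 0 on each of these 3 scales. Of all 13012 genes, 905 were called lower as deposited, and 39, 12 and 22 on these scales. With limits of 0.5 and 2 the members called lower were 0, and with limits of 0.8 and its inverse 8. The all-gene median log2 fold change in the RNAi genotype, -0.38 as deposited, was itself past the limit of 0.8. Shares of all genes were not computed for these limits. The number of members called higher was 0 throughout. Leaving out genes that share their values moved neither median of the other antioxidant genes. Without replicates or depth, a library-wide shift and a change of most transcripts cannot be told apart. No paired analysis was possible because the conditions hold single libraries without replicate numbers.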
